A study of Homo sapiens with 4 samples.

Results

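Some noncoding transcripts were counted in wild-type cells and had a count of 0 in cells with resistance to oxaliplatin, a platinum drug that forms DNA adducts. The transcripts were chosen by their counts: more than 0.1 CPM, the count per 1000000 counts of a library, in both wild-type libraries and a count of 0 in both resistant libraries. The rule took 592 of the 106179 transcripts in the deposited table, or 1.64% of the 36083 transcripts above the minimum in both wild-type libraries. The wild-type counts and the zeros of the resistant libraries are therefore the choice itself, and they are given below as a description, with no test. The study sequenced total RNA of cells labelled HepG2, a long-used line from a human liver tumour, described in the labels as hepatocellular carcinoma. Wild-type cells gave 2 libraries and oxaliplatin-resistant cells of the same line gave 2, all grown in the same medium with no further treatment listed. The labels do not give the dose or time of selection, whether the resistant cells are 1 clone, or if libraries of the same group were grown as separate cultures.

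The libraries held 34898860 to 44063444 estimated counts. A count of 0 in a resistant library allows up to 3 counts, or 0.0681 to 0.0690 CPM, for counting error only. Across the 56969 transcripts with a count in any library, Pearson's r of log2(CPM + 0.1) was 0.736 between the wild-type libraries, 0.740 between the resistant ones and 0.715 to 0.726 between groups. These values are across transcripts, which share the library and its depth. Of 14 hepatocyte genes in the table, 9 had a count of 0 in all 4 libraries, among them *AFP*, *TTR* and *SERPINA1*. *ALB* had 8 counts in 1 wild-type library and 0 elsewhere, and *CPS1*, a urea cycle gene, was the one hepatocyte gene above 0.1 CPM in both wild-type libraries. Summed over the list, the level was 56.0 and 67.3 CPM in wild type and 53.3 and 40.9 CPM in resistant cells. Of the transcripts above the wild-type minimum 39 are annotated as protein coding, or 0.108%, so these are almost all noncoding transcripts of the marker genes. The sums of the fibroblast and endothelial list were 4.75 and 7.19 CPM against 3.17 and 1.61 CPM, and those of the immune list lay between 0 and 0.621 CPM.

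A gene can give rise to many RNAs through different start sites, splice sites and ends. Long intergenic noncoding RNAs (lincRNAs) lie between coding genes, antisense RNAs lie across a gene on its opposite strand, and coding genes also yield noncoding forms, such as transcripts that keep an intron. Where transcripts of a gene overlap, a short read often fits several of them, and a counting program divides such reads by rules of its own. A count of 0 for a transcript is then not the same as a silent gene, and the sum over the gene's transcripts is the second measure to look at. In RNA from a cell population, fewer cells with a transcript and less of it per cell cannot be told apart.

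The splice junctions of 2 genes are shown in which 1 transcript was counted only in wild type and another only in resistant cells. The first, chosen for print after its values were seen, as was *LINC01389* below, is *AL390729.1*, a lincRNA gene with 2 transcripts in the table, both on the plus strand of chromosome 1. The wild-type transcript, ENST00000456651, lies at chr1:112850028-112877871 and has 3 exons. The resistant one, ENST00000422022, lies at chr1:112850076-112877867 and runs from the same donor site straight to the same last exon, leaving out the 45-base exon at chr1:112876940-112876984. The splice junctions are printed 5′ to 3′ with 30 bases on either side, and capitals mark the downstream exon. The middle exon is printed in capitals throughout.
wild type, junction 1: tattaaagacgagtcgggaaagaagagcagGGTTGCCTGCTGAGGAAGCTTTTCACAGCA
wild type, junction 2: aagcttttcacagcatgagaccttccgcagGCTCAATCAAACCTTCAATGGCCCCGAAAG
resistant, junction 1: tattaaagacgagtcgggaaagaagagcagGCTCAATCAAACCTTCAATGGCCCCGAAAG
middle exon: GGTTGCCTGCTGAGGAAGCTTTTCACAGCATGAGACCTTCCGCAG

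*AC008957.1* is an antisense gene on the minus strand of chromosome 5, shown because its transcripts share a first exon and its donor site and then part, with 8.81% of the bases of the wild-type transcript in its counterpart. It was chosen for print after its values were seen. The wild-type transcript, ENST00000512329, lies at chr5:36702478-36725176 and the resistant one, ENST00000510740, at chr5:36666214-36725173. Capitals again mark the downstream exon.
wild type, junction 1: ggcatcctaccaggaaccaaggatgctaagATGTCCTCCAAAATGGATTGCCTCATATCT
wild type, junction 2: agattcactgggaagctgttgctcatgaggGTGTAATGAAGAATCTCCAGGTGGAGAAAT
resistant, junction 1: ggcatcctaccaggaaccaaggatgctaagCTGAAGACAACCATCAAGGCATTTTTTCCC
resistant, junction 2: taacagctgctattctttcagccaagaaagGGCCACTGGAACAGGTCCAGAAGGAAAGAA

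*LINC01389*, an antisense gene on the minus strand of chromosome 1, stands for the other kind of case, in which the gene as a whole had no count in resistant cells. Its single listed transcript, ENST00000420876, lies at chr1:47380928-47408477, has 3 exons and 483 bases, and shares no base with another transcript of the annotation on its strand. Its junctions are printed in the same way.
*LINC01389*, junction 1: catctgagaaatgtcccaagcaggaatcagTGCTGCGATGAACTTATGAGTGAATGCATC
*LINC01389*, junction 2: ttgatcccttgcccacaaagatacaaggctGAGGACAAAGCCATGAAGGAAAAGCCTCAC

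The 592 transcripts held 0.922% and 0.969% of the counts of wild-type replicates 1 and 2. Their mean level in wild type ran from 0.110 to 812 CPM, with a median of 2.06 CPM and quartiles of 0.679 and 8.36 CPM. The median over all 36083 transcripts above the minimum was 3.47 CPM. A mean of at least 1 CPM was reached by 404, of at least 10 CPM by 126 and of at least 100 CPM by 17. At least 10 counts in each wild-type library were found for 477, and at least 100 counts for 199.

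The wild-type libraries differed from each other in these transcripts. The higher library exceeded the lower by a median of 1.91-fold, against 1.54-fold over all transcripts above the minimum. The libraries were within 2-fold for 306 of the 592, or 51.7%, against 67.5% of all. Replicate 1 was higher in 278 and replicate 2 in 314.

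**Figure D1:**
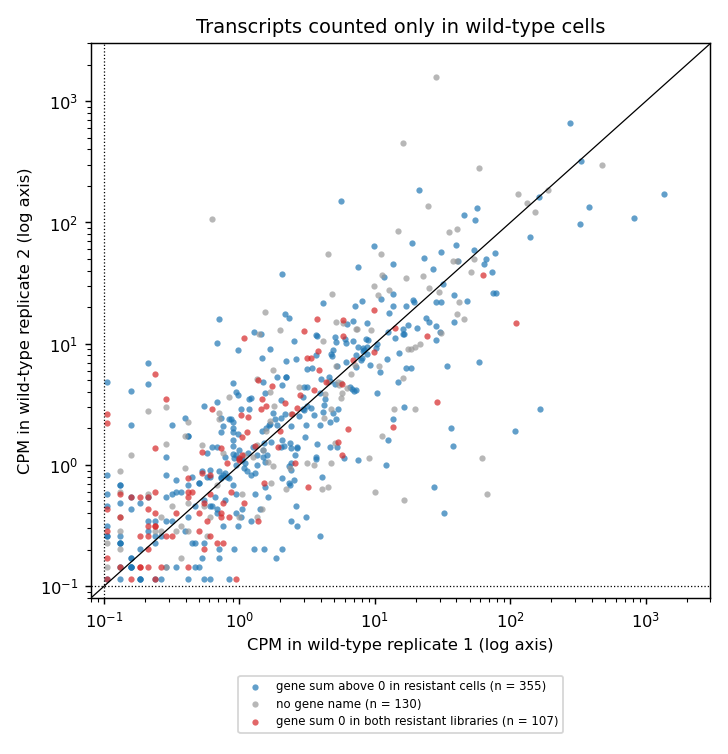
Level of the 592 transcripts in wild-type replicate 1 (x axis) and replicate 2 (y axis), in CPM on log axes, 1 point per transcript, coloured by whether the sum over the gene's transcripts was also 0 in resistant cells. The line marks equal levels and the dotted lines the minimum of 0.1 CPM; the points spread widely around the line, with 306 of the 592 within 2-fold.

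Just inside the rule, ENST00000511921 of the lincRNA gene *AC034199.1* and ENST00000619652 of *AC211433.1* had 4 counts in each wild-type library, 0.105 and 0.115 CPM. ENST00000669136, which has no gene name here, had 4 and 5 counts. Just outside it, ENST00000548692 of *POU6F1* had 63 and 3 counts, ENST00000478247 of *DVL3* had 57 and 3, and ENST00000513841 of *ARHGEF28* had 25 and 3. Another 178 transcripts above the wild-type minimum had 1 to 3 counts in the higher resistant library.

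The number of transcripts taken rested on each of the 4 libraries. Without wild-type replicate 1 the rule took 1948, and without wild-type replicate 2 it took 2150. Without resistant replicate 1 it took 1554, and without resistant replicate 2 it took 1557. The opposite pattern, above 0.1 CPM in both resistant libraries and 0 in both wild-type ones, held for 1293 transcripts, or 3.39% of the 38191 above the minimum in both resistant libraries. Another 1927 transcripts above the wild-type minimum, or 5.34%, had a count of 0 in a single resistant library. Zeros were also counted from 1 library to 1 other. Of the transcripts above 0.1 CPM in wild-type replicate 1, 11.6% had a count of 0 in replicate 2, and in the other direction 10.2% did. For the resistant libraries the shares were 10.3% and 10.2%. From a wild-type to a resistant library the 4 shares were 8.83% to 9.50%, below those within either group, and from a resistant to a wild-type library they were 12.8% to 13.8%. The resistant libraries are deeper, with 43473826 and 44063444 counts against 38113398 and 34898860 for wild type. Shares of the 2 directions, here and for the opposite pattern, are therefore not at like depth, and the part of depth in them was not tested. Counted in a single wild-type library were 9138 transcripts, of which 560 had over 1000 counts there, while 35 of the 592 had over 1000 counts in both wild-type libraries.

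In the edgeR quasi-likelihood test of all transcripts, adjusted by Benjamini-Hochberg, 0 of 42393 transcripts were called, or 0%, at a smallest adjusted p of 0.329. At an unadjusted p under 0.05 there were 3283, of which 1348, or 3.18% of those tested, were lower in resistant cells. DESeq2 called 2261 transcripts, 927 of them lower, and 3222 without the filter on low counts. For gene sums edgeR called 0 of 13745, or 0%, with 1192 at an unadjusted p under 0.05, of which 540, or 3.93%, were lower, and DESeq2 called 633. The test filter passed 483 of the 592. Since the rule used the same contrast, these counts are the background and nothing is read from them about the 592.

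By class, 190 of the 592 were noncoding transcripts of protein-coding genes other than retained introns, and 81 were retained introns of such genes. Antisense genes gave 69, lincRNA genes 60, other noncoding genes 35 and pseudogenes 27. Ensembl identifiers without a name in the reference gave 89 and assembled transcripts 41. By transcript type, 219 were processed transcripts, 87 retained introns, 75 antisense and 73 lincRNA, and these made up 2.17%, 0.480%, 3.90% and 4.55% of their types above the minimum. None of the 39 annotated as protein coding met the rule. The largest class in wild type was the smallest by share. Retained introns of coding genes made up 49.5% of the 36083 transcripts above the minimum but 13.7% of the 592, and 0.454% of them met the rule. For the other transcripts of coding genes the share was 2.01%, for antisense genes 3.83%, for lincRNA genes 4.15%, for pseudogenes 4.21% and for unnamed Ensembl identifiers 4.46%.

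The wild-type libraries were also compared with each other by class, a comparison added after the class counts were seen, and retained introns again had the lowest share. Of retained introns of coding genes above 0.1 CPM in wild-type replicate 1, 3.84% had a count of 0 in replicate 2, against 14.3% of the other transcripts of coding genes, 19.2% of pseudogene transcripts, 23.3% of lincRNA and 23.9% of antisense transcripts, and 27.9% of unnamed Ensembl identifiers. From replicate 2 to replicate 1 the shares were 3.63% for retained introns, 21.3% for lincRNA and 22.1% for antisense transcripts. Whether the difference between classes in the rule goes beyond that between replicates was not tested.

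**Figure D2:**
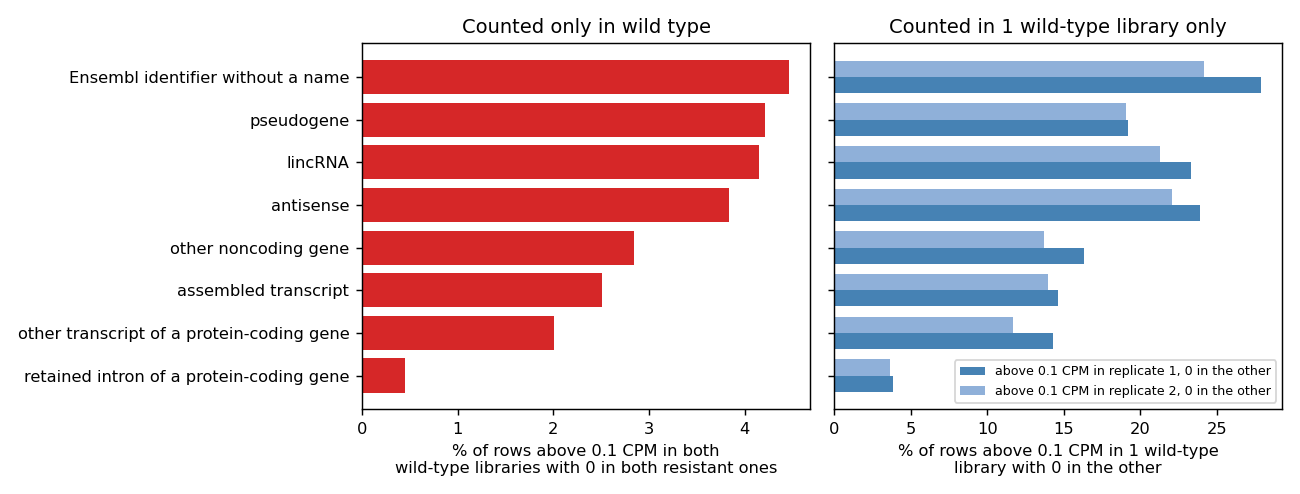
Left, the share of transcripts of each class above 0.1 CPM in both wild-type libraries that had a count of 0 in both resistant libraries, in percent. Right, the share above 0.1 CPM in 1 wild-type library that had a count of 0 in the other, in percent, by the library in which they were counted; retained introns have the lowest bars in both panels, at 0.454% on the left and 3.84% and 3.63% on the right.

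The share that met the rule was 2.80% among transcripts with a wild-type mean up to 0.5 CPM, and between 1.20% and 1.68% in each higher range of level. Among retained introns of coding genes it was 1.17% up to 0.5 CPM, 0.465% from 1 to 5 CPM and 0.0652%, or 1 of 1533, over 50 CPM. Among lincRNA transcripts it was 5.67% up to 0.5 CPM, 3.75% from 1 to 5 CPM and 4.94%, or 4 of 81, over 50 CPM, with 0.990%, or 2 of 202, from 10 to 50 CPM. No antisense transcript of 50 over 50 CPM met it.

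The 462 transcripts with a gene name lay on all chromosomes except Y, where 1 transcript was above the wild-type minimum. Chromosome 1 held 50, chromosome 2 held 40, and chromosomes 3 and 11 held 32 each. Over all chromosomes, 462 of the 32454 named transcripts above the minimum met the rule. As a share of these named transcripts, chromosome 20 was highest, with 13 of 624 or 2.08%, followed by chromosome 13 with 10 of 497 or 2.01%. Chromosome 18 was lowest, with 4 of 567 or 0.705%, apart from Y. The annotation grades how well a transcript is supported, from 1, the best, to 5. Of transcripts at level 2, 0.941% met the rule, and of those at levels 4 and 5, 2.25% and 2.05% did, while level 1 was at 1.58%.

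The 462 transcripts differed in structure from the 32454 named transcripts above the wild-type minimum. An exonic base is called a transcript's own here if no other transcript of release 29 covers it on the same strand. Of the 462, 127, or 27.5%, had no base of their own, against 14.3% of the 32454. An intron that no other transcript has was present in 314, or 68.0%, against 33.4%. The sets also differ in class mix, so this gap does not reflect structure within classes alone. Retained introns of coding genes, of which 7.68% of those above the minimum had such an intron, were 81 of the 462 against 17854 of the 32454. The median length was 666 bases against 713. A set added after these values were seen, the 7119 named transcripts counted in a single wild-type library, was close to the 462: 27.7% had no base of their own and 69.7% had an intron of their own. So were the 1052 named transcripts of the opposite pattern, at 28.9% and 70.3%. A description of this kind does not say how the counts were made.

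**Figure D3:**
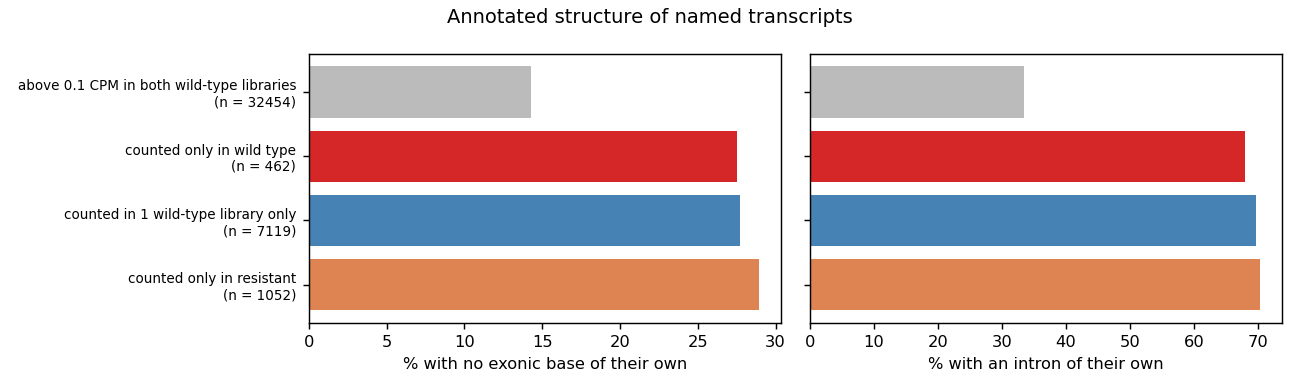
Share of named transcripts, in percent, with no exonic base of their own (left) and with an intron of their own (right), in transcripts above 0.1 CPM in both wild-type libraries, the 462 named transcripts counted only in wild type, those counted in a single wild-type library and those counted only in resistant cells. The first set stands at 14.3% and 33.4%, and the other three between 27.5% and 28.9% on the left and between 68.0% and 70.3% on the right.

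The classes differed in these measures. Among transcripts of coding genes other than retained introns, 36.3% of the 190 had no base of their own, against 16.2% of all above the minimum and 37.7% of those counted in a single wild-type library. Among lincRNA genes, 78.3% of the 60 had an intron of their own, against 57.6% and 80.8%. Antisense transcripts without a base of their own were 8.70% of the 69, near the 7.38% of all antisense transcripts above the minimum. Among pseudogenes the share was 29.6% of the 27, against 16.4% of all and 19.8% of those counted in a single wild-type library. Retained introns of the set were longer than all above the minimum, with medians of 933 and 745 bases, as were pseudogenes, at 1309 and 1153, and other noncoding genes, at 852 and 802. An exon on the opposite strand was overlapped by 103 of the 462, or 22.3%, against 15.9% of all named transcripts above the minimum. Among antisense transcripts it was 36 of the 69, or 52.2%, against 61.6% of all antisense transcripts above the minimum. The sources used here do not say whether reads were counted by strand, so reads of both strands cannot be told apart there.

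Among transcripts of coding genes, the highest wild-type mean belonged to ENST00000405053 of *PDE4D*, which encodes an enzyme that breaks down cAMP. It had 52292 and 6012 counts in wild type, 1372 and 172 CPM, and 0 in both resistant libraries. The wild-type libraries were far apart. It has 6 exons at chr5:58993425-59893285, minus strand, and no exonic base of its own. The sum over *PDE4D* was 4338 and 2155 CPM for wild type against 2386 and 1641 CPM for resistant libraries, which overlap. Whether sums overlap is judged here and below on CPM, since the resistant libraries are deeper.

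ENST00000507576 of *KIF13A*, a kinesin motor gene, at chr6:17855477-17987551, minus strand, had 10442 and 23145 counts, 469 ± 275 CPM (SD, n = 2). The transcript held 88.9% of the gene's wild-type counts, and the gene sum was 358 and 692 CPM for wild type against 31.7 and 70.4 CPM. The gene sum was lower in both resistant libraries but did not reach 0. The sums given for single genes, here and below, include the chosen transcript. The rule itself therefore pulls them down, and no reading is taken from a lower sum. In *EYA3*, which encodes a phosphatase and transcriptional coactivator, ENST00000471498 had 12337 and 3421 counts, 89.8% of the gene's wild-type counts. The *EYA3* sum was 351 and 119 CPM against 30.1 and 39.4 CPM. In *EML6*, a microtubule-associated protein gene, ENST00000491655 had 5297 and 2667 counts, and the sum was 155 and 87.9 CPM against 14.8 and 14.2 CPM.

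ENST00000541977 of *PRH1*, a salivary proline-rich protein gene, had 31284 and 3785 counts, and the gene sum was 1460.2 and 730.1 CPM against 659 and 599 CPM, lower in both resistant libraries. This gene belongs to a family of close copies, so how its reads were assigned is uncertain. In *MTUS1*, another microtubule-associated protein gene, ENST00000524044 had 810 and 6497 counts, 10.7% of the gene's wild-type sum, and that sum was 705 and 1178 CPM against 538 and 782 CPM, which overlap. In *MACROD2*, which encodes an enzyme that removes ADP-ribose, ENST00000477147 had 1736 and 4058 counts and the gene 180.0 and 227 CPM against 174 and 89.9 CPM, lower in both. ENST00000648525 of *RABL3*, a small GTPase gene, had 14438 and 4670 counts, and its gene sum was 399 and 269.9 CPM against 33.9 and 19.9 CPM.

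The retained introns were led by *OXA1L*, an inner mitochondrial membrane insertase gene, whose ENST00000495424 had 6233 and 5605 counts, 162 ± 2.07 CPM (SD, n = 2). It was the one retained intron of the set over 50 CPM, and its wild-type libraries were close. It has 1 intron but no exonic base of its own. Of its bases, 94.3% lie in ENST00000481218, which was counted in resistant cells, so how reads were divided is uncertain. The next were ENST00000467497 of *GLIS3*, a zinc finger transcription factor gene, with 713 and 2354 counts, and ENST00000464865 of *SLC37A3*, a sugar phosphate transporter family gene, with 1821 and 783. The *GLIS3* sum was 29.2 and 84.0 CPM against 10.1 and 3.65 CPM, lower in both. The *SLC37A3* sum, at 174 and 99.3 against 165 and 148 CPM, and the *OXA1L* sum, at 179 and 173 against 202 and 74.8 CPM, overlapped.

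Of the lincRNA genes, *AL390729.1* had the highest transcript of the set, with 2174 and 4571 counts, 94.0 ± 52.3 CPM (SD, n = 2). It was followed by ENST00000431385 of *MIR4435-2HG*, with 6271 and 102 counts, 165 and 2.92 CPM. This transcript made up 1.91% of the gene's wild-type counts, and the gene has a near-identical copy, *CYTOR*, so its reads are uncertain. *LINC01505* had 4193 and 514 counts in ENST00000637185. Of the antisense genes, ENST00000582072 of *CDKN2B-AS1* had 44.6 ± 5.27 CPM, ENST00000443800 of *SPRY4-AS1* 25.4 ± 25.2 CPM and ENST00000512370 of *AC097515.1* 20.8 ± 2.01 CPM (SD, n = 2). The *AC097515.1* sum was 20.4 and 25.9 CPM against 0 and 2.88 CPM.

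Among other noncoding genes, ENST00000650131 of *LINC00511* had 328 ± 7.74 CPM, ENST00000425648 of *AL365295.1* 56.1 ± 24.3 CPM and ENST00000491615 of *DLEU1*, a noncoding gene of a region often deleted in leukaemia, 52.0 ± 36.8 CPM (SD, n = 2). The *LINC00511* sum was 506 and 412 CPM against 738 and 965 CPM, higher in both resistant libraries. The *DLEU1* sum was 288 and 156 CPM against 205 and 145 CPM, which overlap, and the *AL365295.1* sum 73.3 and 88.2 CPM against 7.18 and 0.749 CPM. The *DLEU1* transcript has no exonic base or intron of its own, and 92.4% of its bases lie in ENST00000467721, which was counted in resistant cells. The pseudogene transcripts were lower. ENST00000423084 of *AC004980.1* had 884 and 1765 counts, ENST00000559654 of *GOLGA2P7* 517 and 894, and ENST00000643130 of *AC073264.3* 419 and 814. Pseudogenes share sequence with their parent genes, so these counts are uncertain.

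The highest of all was an Ensembl identifier without a name, ENST00000657112, with 1070 and 55696 counts, 28.1 and 1596 CPM. ENST00000666519 had 18148 and 10347 counts and ENST00000655573 had 7222 and 6430, 187 ± 3.71 CPM (SD, n = 2). Of the 89 unnamed identifiers, 46 were within 2-fold between the wild-type libraries. The assembled transcripts were led by TCONS_00275544, with 611 and 15776 counts, TCONS_00046462, with 2218 and 9789, and TCONS_00135224, with 944 and 4832. All 3 were higher in wild-type replicate 2.

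For most named transcripts the gene itself remained counted in resistant cells. The 462 transcripts belonged to 440 genes. For 355 of them the sum over the gene's transcripts was above 0 in a resistant library, and for 107 it was 0 in both. Of these 107, 58 were the only transcript of their gene in the table, so that the sum is the transcript itself, and 49 belonged to genes with several listed transcripts. Not all listed transcripts were counted, however. In some of these genes, such as *HLF* with 5 listed, 1 alone was counted in wild type. There too the sum is the transcript itself, and its 0 follows from the rule. The sum was also 0 for 30 of the 60 lincRNA transcripts, 24 of the 69 antisense transcripts, 28 of the 190 other transcripts of coding genes and 14 of the 81 retained introns. These sums cover named transcripts alone, so reads of a gene may lie on identifiers without a name, and mRNAs are almost all outside the table.

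By gene, 118 of the 12565 gene sums above 0.1 CPM in both wild-type libraries, or 0.939%, were 0 in both resistant libraries, and 104 of these genes held a transcript of the set. The share was 31 of 1148, or 2.70%, for lincRNA genes, 27 of 1468, or 1.84%, for antisense genes and 49 of 8778, or 0.558%, for coding genes. Between the wild-type libraries, 8.49% of the gene sums above 0.1 CPM in replicate 1 were 0 in replicate 2, and 7.13% in the other direction. The sums of the 104 genes were low in wild type, with a median of 1.10 CPM and 50 means under 1 CPM. In each wild-type library, 70 of the sums had at least 10 counts and 20 had at least 100. Of the 104, 41 are coding genes, whose mRNAs are almost all outside the table, so the level of the whole gene is not known. Only 1 pair of genes with a sum of 0 were direct neighbours along a chromosome among the genes above the wild-type minimum: *AC007114.1* and *AC007114.2* on chromosome 17, 7120 bases apart, with 58 and 25 counts and 6 and 4 counts in wild type.

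**Figure D4:**
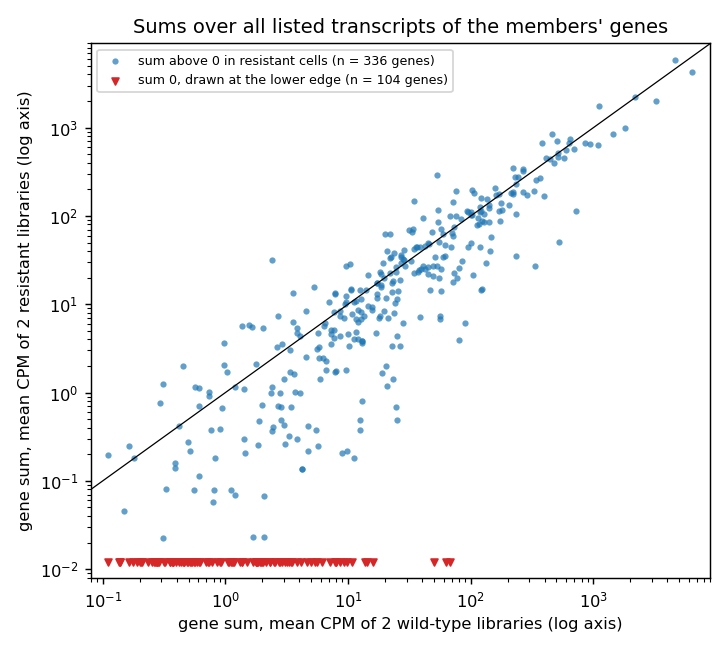
Sums over all listed transcripts of the 440 genes, as mean CPM of the 2 wild-type libraries (x axis) and of the 2 resistant libraries (y axis), log axes, 1 point per gene. The 336 genes counted in resistant cells lie around and below the line of equal levels, and the 104 genes with a sum of 0 are drawn as triangles at the lower edge, none above 67.1 CPM in wild type.

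*AC093157.1*, an antisense gene at chr1:101025878-101087268, plus strand, had the highest sum of the 104, with 4339 and 712 counts in wild type, 114 and 20.4 CPM, and 0 in both resistant libraries. Against 3 counts per resistant library its mean was at least 979-fold lower in resistant cells, a bound for counting error only. That mean, 67.1 ± 66.1 CPM (SD, n = 2), rests mostly on replicate 1, and the bound with it. Of its 6 listed transcripts 4 were counted in wild type, and 2 of them met the rule. These were ENST00000451213, with 921 and 406 counts, and ENST00000453011, with 144 and 306. Most of the gene's replicate 1 counts thus lay on transcripts that did not meet the rule. The lincRNA gene *LINC01505* followed, at chr9:105993310-106740875, plus strand, with 4193 and 536 counts. In both genes wild-type replicate 1 was several times above replicate 2. *AP003086.2*, an antisense gene at chr11:78324758-78444049, plus strand, had 1092 and 115 counts, and *LINC01389* had 223 and 552. The lincRNA gene *AL592295.3*, at chr1:161403409-161470523, minus strand, had 221 and 400.

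The coding genes among the 10 of highest sum were *ZNF695*, a zinc finger gene, with 2388 and 1284 counts, *PELO*, a ribosome rescue factor gene, with 376 and 661, and *S100P*, a calcium-binding protein gene, with 534 and 474. They also included *AL365214.3*, with 142 and 554, and *SPAAR*, which encodes a small polypeptide that regulates the response to amino acids, with 380 and 300. All were at 0 in both resistant libraries. *ZNF695*, *PELO*, *S100P* and *AL365214.3* each had 1 transcript in the table and *SPAAR* had 2. *S100P*, at 13.8 ± 0.303 CPM, and *SPAAR*, at 9.28 ± 0.972 CPM (SD, n = 2), had the closest wild-type libraries of these 10. The transcripts of *ZNF695* and *PELO* have no exonic base of their own and that of *S100P* has 1 of 313. Each of these 3 has 1 intron of its own, and how their reads were assigned is uncertain. In *AL365214.3* and in the *SPAAR* transcript of the set, 30.5% and 63.8% of the bases are their own.

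Some further genes with close sums in the wild-type libraries were picked after their values were seen. *SOX5*, a transcription factor gene with 8 listed transcripts, had sums of 307 and 267 counts in wild type, 7.85 ± 0.286 CPM (SD, n = 2), and 0 in both resistant libraries. Of the 8, 2 were counted in wild type. The one that met the rule, ENST00000456299, had 121 and 267 counts, 2.41-fold apart in CPM. For *SOX5* the wild-type libraries are therefore close in the sum alone. *HLF*, which encodes a transcription factor found in liver, had 166 and 169 counts, all on 1 of its 5 listed transcripts. *NAA20*, an N-terminal acetyltransferase gene, had 223 and 172, on 2 of its 4 listed transcripts, and these 2 met the rule. *ZNF652*, a zinc finger gene with 1 transcript, had 264 and 256. Of the 586 bases of that transcript, 2 are its own.

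In the 336 genes that remained counted in resistant cells, the transcript of the set held a median of 16.5% of the gene's wild-type counts. It held over 90% in 48 cases, over 50% in 101 and under 5% in 102 of the 355. The gene sum was lower in both resistant libraries than in either wild-type one for 149 of the 336 genes, or 44.3%, against 18.2% of all 12447 gene sums above 0 in resistant cells. It was higher for 42, or 12.5%, against 25.8%, and overlapped for 145. These sums include the chosen transcript, so the rule itself pulls them down, and no reading is taken from the difference.

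In a comparison added after these sums were seen, the chosen transcripts were left out. The rest of the gene was above 0.1 CPM in both wild-type libraries for 277 genes. It was lower in both resistant libraries for 70, or 25.3%, higher for 60, or 21.7%, and overlapped for 147. Among the 12125 genes without a transcript of the set, 17.6% were lower and 26.2% higher. The median ratio of resistant to wild-type mean was 0.952 over the 277 genes, with quartiles of 0.623 and 1.43, and 1.07 over the other genes, with quartiles of 0.752 and 1.48. Both belong to the contrast the rule used and are given without a test. For 203 of the 355 transcripts, more than 50% of the exonic bases were also in a single other transcript of the gene that was counted in resistant cells, and the median was 57.6%.

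Transcripts of both patterns occurred in 44 genes, or 11.5% of the 382 genes of the set with several listed transcripts. Of all 8860 genes with several listed transcripts and a sum above the wild-type minimum, 6.29% held a transcript counted only in resistant cells. The 2 sets were not matched for the number of listed transcripts per gene, which reached 170 among the 44. The 6.29% is therefore not a like background, and no link between the patterns was tested. Taking the highest transcript of each pattern, the pair shared an intron in 26 genes and no base in 8. Their start sites lay within 100 bases of each other in 17, and a median of 44.2% of the wild-type transcript's bases lay in its counterpart. The gene sums were higher in resistant cells in 15 of the 44 genes, lower in 12 and overlapping in 17, where 25.8% of all gene sums above 0 in resistant cells were higher and 18.2% lower.

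In *AL390729.1* the transcript with the 45-base exon had 2174 and 4571 counts in wild type, and the transcript without it had 5721 and 4093 in resistant cells, each with 0 in the other group. No other transcript of the gene was listed, so the gene sums are the same numbers and overlap between groups. In CPM the sums were 57.0 and 131 against 132 and 92.9. Of the exonic bases of the longer transcript, 68.1% lie across from an exon on the opposite strand. In *AC008957.1* the 3-exon transcript that ends at chr5:36702478 had 45 and 100 counts in wild type, and the one that ends further downstream had 259 and 213 in resistant cells. Here the sum was higher in both resistant libraries.

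*NRIP1*, a nuclear receptor corepressor gene on chromosome 21, had 2 listed transcripts: 2096 and 3653 counts of ENST00000637963 in wild type, and 1624 and 607 counts of ENST00000637630 in resistant cells. The *NRIP1* sum, at 55.0 and 105 against 37.4 and 13.8 CPM, was lower in both resistant libraries. In *TRAPPC9*, a vesicle tethering complex gene, ENST00000522504 had 514 and 1581 counts and its counterpart ENST00000517667 had 1388 and 1135, with no base in common. The *TRAPPC9* sum was 293 and 504 against 138 and 201 CPM, lower in both. *MEIS1*, a homeobox gene, had 388 and 322 counts of ENST00000409622 and 1140 and 117 of ENST00000542964, and a sum of 38.7 and 23.9 against 88.1 and 52.3 CPM, higher in both. *SLC37A3* had 613 and 398 counts of ENST00000461089 in resistant cells, and *GOLGA2P7* 354 and 544 of ENST00000400817. The *GOLGA2P7* sum was 129 and 163 against 72.0 and 43.1 CPM, lower in both.

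In *PCAT1*, an antisense gene of chromosome 8, ENST00000647190 had 1302 and 230 counts in wild type and ENST00000644627 had 694 and 509 in resistant cells. In *PCBP1-AS1*, whose 170 listed transcripts included 2 of the wild-type and 7 of the resistant pattern, ENST00000419963 had 571 and 293 counts and ENST00000628305 had 1468 and 746. The sums overlapped in *PCAT1*, at 382 and 195 against 145 and 198 CPM, and in *PCBP1-AS1*, at 489 and 537 against 601 and 429 CPM. By the lower of the pair's means, *LINC00511* was the most abundant of the 44, with ENST00000648623 at 21180 and 30773 counts in resistant cells. Its wild-type counterpart ENST00000650131 has no exonic base or intron of its own. Of the bases of ENST00000650131, 95.0% lie in ENST00000648623, so how reads were divided between the pair is uncertain.

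**Figure D5:**
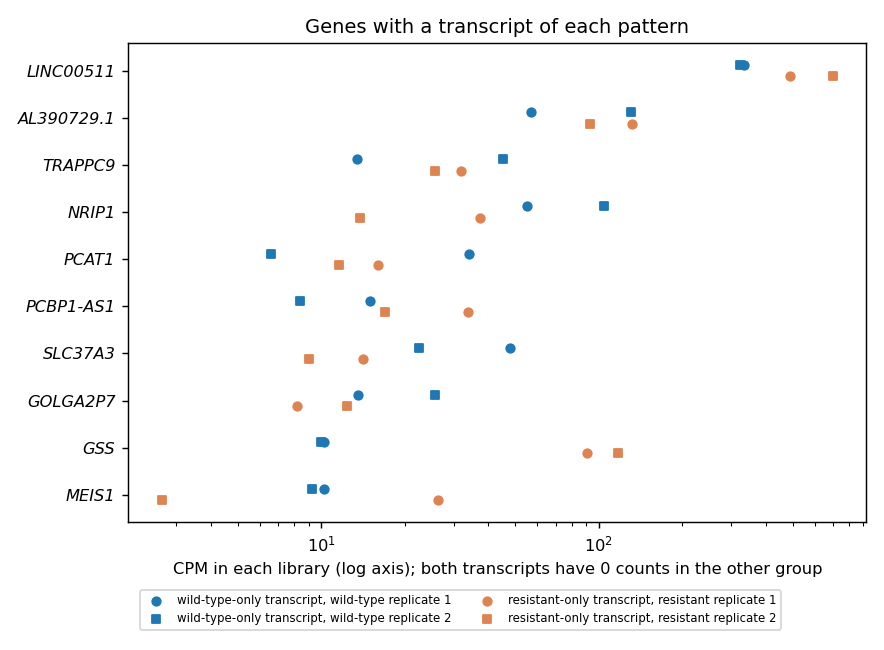
The 10 genes of highest level with a transcript of each pattern: CPM in each library on a log axis, blue for the transcript counted only in wild type in the 2 wild-type libraries, orange for the transcript counted only in resistant cells in the 2 resistant libraries. *LINC00511* and *AL390729.1* are the highest pairs, and in *GSS* the resistant transcript is the higher one by far.

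*GSS*, which encodes glutathione synthetase, the last enzyme of glutathione synthesis, also held a transcript of each pattern. ENST00000645723, a retained intron with 12 exons at chromosome 20, had 391 and 348 counts in wild type, 10.1 ± 0.203 CPM (SD, n = 2). ENST00000646512 had 3938 and 5168 counts in resistant cells, 104 CPM on average, and shares 8 introns with it. All 1907 bases of ENST00000646512 lie in ENST00000645723, which has 8 bases and no intron of its own. How reads were divided between the pair is therefore uncertain. The *GSS* sum was 36.6 and 32.5 CPM for wild type against 171 and 128 CPM, higher in both resistant libraries.

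The 8 gene lists of known lncRNAs, platinum handling, DNA repair, p53 and splicing held 8 of the 592, or 1.23% of their 649 transcripts above the wild-type minimum, near the 1.64% over all transcripts. Of all 12565 gene sums above the minimum, 3.50% belonged to a gene with a transcript of the set. In the list of platinum transport, glutathione and efflux, 24 genes were above the wild-type minimum and 2 held a transcript of the set: *GSS* and *SLC47A1*, the gene of the MATE1 extrusion transporter, with 28 and 65 counts of ENST00000497548. The *SLC47A1* sum was 1.76 and 8.80 CPM against 28.9 and 2.68 CPM, which overlap. Of 35 DNA repair genes 1 did, *MUTYH*, a base excision repair glycosylase gene, with 38 and 46 counts of ENST00000492494 and gene sums of 9.13 and 13.2 CPM against 10.7 and 10.7 CPM, which overlap. Of 28 splicing factor genes 1 did, *CLK1*, a kinase gene of splicing factors, with 22 and 44 counts of ENST00000492793. The *CLK1* sum was 17.2 and 12.1 CPM against 21.1 and 21.6 CPM, higher in both resistant libraries.

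Of 20 liver cancer lncRNAs above the minimum, 4 held a transcript of the set. By transcript it was 4 of the 144 above the minimum, beside 1.64% over all transcripts. These 4 genes have 21 to 106 listed transcripts each, so the 3.50% per gene is not a like background for them. Besides *LINC00511* and *CDKN2B-AS1* the genes were *CYTOR*, with 465 and 260 counts of ENST00000643509, and *UCA1*, with 39 and 102 counts of ENST00000645764. The *CYTOR* sum was 6082 and 6599 CPM against 3593 and 4924 CPM, lower in both resistant libraries. The reads of *CYTOR* are uncertain, given its near-identical copy *MIR4435-2HG*. The sum of that copy was 3799.9 and 5431 against 5054 and 6759 CPM, which overlap. The *UCA1* sum was 5.54 and 5.73 CPM against 3.75 and 5.70 CPM, which overlap. *LINC00511* and *UCA1* also stand in the list of 13 drug resistance lncRNAs above the minimum, where the transcripts of the set were 2 of 52. The lists of p53 and DNA damage lncRNAs, p53 targets and snoRNA hosts held 0, with 10, 15 and 17 genes above the minimum. In none of the 8 lists was a gene sum with a transcript of the set at 0 in resistant cells.

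More than 1 transcript of the set came from 21 genes, and no gene had 4 or more. *CASC19*, a noncoding gene of chromosome 8 with 84 listed transcripts, had 3, and it is named here after its values were seen. Their counts were 1175 and 773 in ENST00000641704, 1393 and 70 in ENST00000641681, and 140 and 39 in ENST00000642118. The *CASC19* sum was 1989.5 and 1657 CPM against 1670.2 and 309 CPM, which overlap.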

How the data were processed

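RNA of 2 wild-type and 2 resistant libraries was measured by paired-end RNA-seq with 150-base reads from 2 µg of total RNA, per the labels' protocols. The values the authors deposited are estimated counts, 1 whole number per transcript and library, not normalized. Which aligner, counting tool and annotation made them is not given in the sources used here. A mouse genome build stands in the submitters' processing notes, whereas the identifiers are human. Names were looked up in GENCODE 29 (GRCh38), from which all names, classes, sequences and coordinates (counted from 1) come. Sums per gene cover named transcripts. CPM is relative to the column total. All transcripts and all gene sums were tested with edgeR 4.0.16 in R 4.3.3 (quasi-likelihood, TMM, minimum count of 10 in the filter, Benjamini-Hochberg, threshold 0.05). DESeq2 1.42.0 was an alternative. With 2 libraries against 2, an exact permutation p cannot go below 0.33, and the p-values reflect variation among these libraries alone, possibly technical. Tables and figures used Python 3.11.15, pandas 2.3.3 and matplotlib 3.10.9.

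The transcripts and lists were chosen with earlier results of these data known. The sets counted in a single wild-type library, the sums without the chosen transcripts and the printed sequences were chosen after their values, or those beside them, were seen. Named were the 12 transcripts of highest wild-type mean with a gene name, 3 per class, 10 genes with a sum of 0, 10 genes with both patterns, genes with 4 or more transcripts, up to 5 transcripts a list and the 3 on either side of the minimum.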

Additional observations from a re-analysis of the deposited data

How the results depend on the processing

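The number of transcripts counted only in wild type was 592, 408 at a minimum of 0.5 CPM, 319 at a minimum of 1 CPM, 770 with up to 3 counts in each resistant library and 592 with TMM library sizes. Leaving out 1 library gave 1554 to 2150, by construction a wider rule that contains all 592. Those whose gene sum was also 0 numbered 107, 54 at 0.5 CPM, 42 at 1 CPM, 151 with up to 3 counts and 301 to 545 without 1 library. Genes with both patterns numbered 44, 25 at 1 CPM, 67 with up to 3 counts and 210 to 233 without 1 library. The edgeR test called 0 transcripts and 0 genes in each alternative run with it: RLE size factors, no filter, the replicate number as a block and each library left out, where the group with a lone library is assumed to vary like the other. The smallest adjusted p was 0.329 to 0.949 for transcripts and 0.323 to 0.825 for genes. At an unadjusted p under 0.05 edgeR gave 3283 transcripts and 1192 genes. DESeq2 called 2261 transcripts and 633 genes, and without the filter 3222 and 714. DESeq2 was first run without the filter, and the filtered run was made after those counts had been seen, so both are given. The cause was not tested. With the replicate block edgeR called 0 of each. Same-numbered libraries did not deviate together from their group means, with a correlation of deviations of 0.0083. With 2 libraries per group this is a single value, the same for both pairs by construction. The numbers are not taken to pair the samples. Counting depth limits what a 0 can show to 3 counts per library.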
